A study of Mus musculus with 5 samples.

Results

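Cholesterol is the precursor of the steroid hormones that the ovary makes, and 30 genes of its synthesis, control, uptake, transport and storage are described here across the cell types of the mouse ovary between 2 and 6 wk of age. The list was given by gene symbol, and all 30 symbols were found among the 31053 genes of each count table. It holds 18 enzymes of the synthesis pathway, 5 regulators and 7 genes of uptake, transport and storage. The cells came from dissociated ovaries of untreated C57BL6/J mice at 2, 3, 4, 5 and 6 wk, freed with trypsin and sorted as live cells, with 1 library of 3′ single-cell RNA sequencing per age. The number of mice behind each library was not given in the sources used here, so a difference between ages has no replicate check, and in addition the 2, 3 and 4 wk tables were made with Cell Ranger 3.1.0 and the 5 and 6 wk tables with 6.0.1. Comparisons between cell classes used the 5 libraries as replicates, and every class in them came from the same suspension. The libraries differ in age, so each SD over them holds differences between ages as well as other spread.

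Cells build cholesterol from acetyl-CoA through mevalonate, squalene and lanosterol, and the genes of the route are switched on together by the transcription factor SREBP2, which Scap escorts out of the endoplasmic reticulum and Insig proteins hold back when sterol is plentiful. Steroid-making cells also take up cholesteryl ester from high-density lipoprotein through the receptor encoded by Scarb1, store it as ester made by the acyltransferase Soat1, release it again with the lipase Lipe, and deliver free cholesterol to mitochondria. In the ovary the theca cells around growing follicles turn cholesterol into androgen, and the granulosa cells inside the follicle convert androgen into estrogen.

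The tables held 48163 cells and 93438618 to 144609431 UMIs (counted molecules) per library. Clusters were named from marker genes and are written as "-like". Granulosa-like cells numbered 17861, stromal-like cells 15076 and theca-like cells 1516, of which the 5 wk library gave 616 and the others 151 to 306. The theca-like cluster expressed Cyp11a1 and Cyp17a1, enzymes of the early steps of androgen synthesis, in all 5 libraries, at 469 to 5042 CPM (the gene's UMIs scaled to a fixed total of UMIs in the same cells) and 85.9 to 3080 CPM. Its 6 theca markers summed to 9684 CPM at 5 wk and to 816, 1310, 1885 and 2514 CPM at 3, 6, 4 and 2 wk. The 5 wk theca-like cells therefore stood apart from the other libraries, and counts of calls that moved most without it are given beside the results. Between 18 and 35 cell barcodes were shared by any pair of libraries.

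Theca-like cells held more transcripts of the synthesis pathway than granulosa-like or stromal-like cells in every library. The summed level of the 18 enzymes in theca-like cells was 648, 789, 1166, 1585 and 894 CPM at 2, 3, 4, 5 and 6 wk, a mean of 1017 ± 370 CPM (SD, n = 5). In granulosa-like cells it was 527, 490, 426, 509 and 518 CPM (494 ± 40.4), and in stromal-like cells 447, 308, 264, 264 and 271 CPM (311 ± 78.2). The lowest theca-like library was above the highest library of each of these classes. Early theca-like cells, a group of 2861 cells among the mesenchymal-like cells, summed to 314 ± 90.5 CPM with a highest value of 475 CPM, below the theca-like range. One granulosa group did reach that range: antral-like cells, described further on, summed to 788 CPM at 2 wk, above the 648 CPM of the theca-like cells of that library. The 7 uptake, transport and storage genes had another order, with 1365 ± 230 CPM in surface epithelial-like cells, 1284 ± 367 in theca-like cells, 997 ± 321 in hematopoietic-like cells, 744 ± 109 in granulosa-like cells and 563 ± 30.7 in stromal-like cells (SD, n = 5). The first 3 classes in that order overlapped in their ranges. Single abundant genes weighed heavily in these sums. Soat1 alone averaged 788 CPM in surface epithelial-like and 650 CPM in theca-like cells, and Npc2 573 CPM in hematopoietic-like cells.

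**Figure D1:**
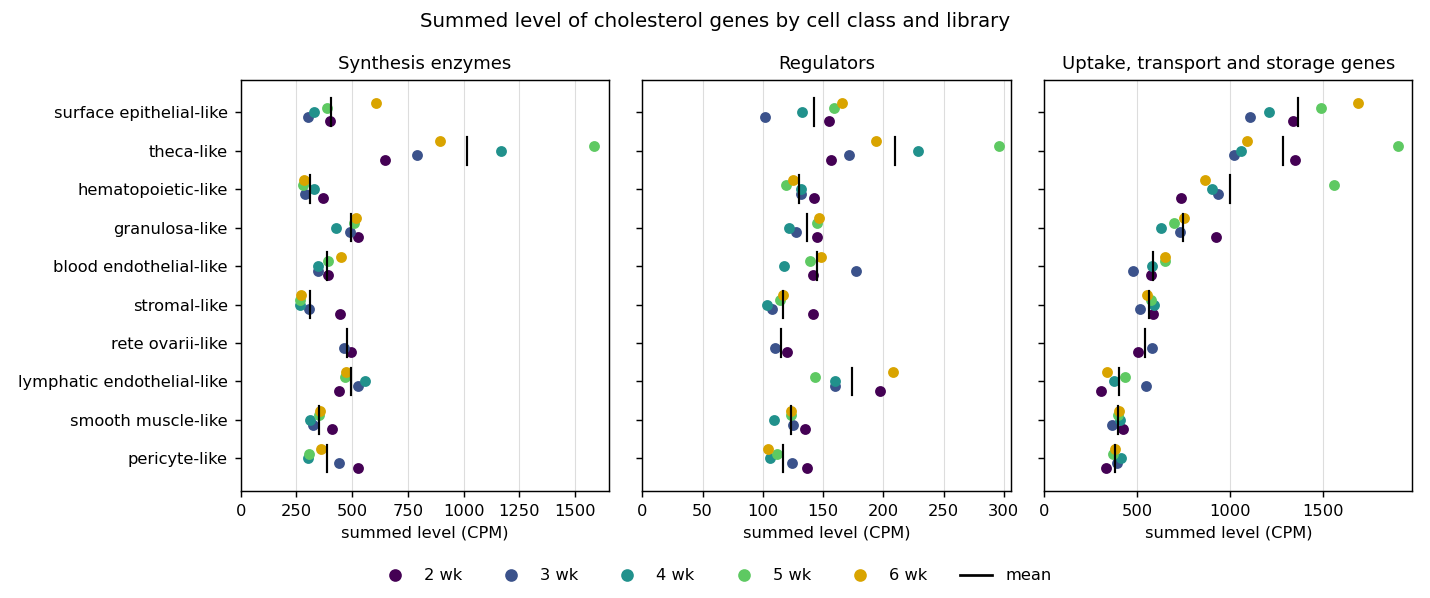
Summed level of the synthesis enzymes, the regulators and the uptake, transport and storage genes (x axis, CPM) in each cell class (rows). Each point is 1 library coloured by age and the black line is the mean over libraries with at least 10 cells; the theca-like points for the synthesis enzymes lie between 648 and 1585 CPM.

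Theca-like cells were the class with the highest mean level for 15 of the 18 enzymes, and for 4 of them (Hmgcs1, Mvd, Cyp51 and Sc5d) their range did not overlap that of the next class. Of the 15257 genes tested between classes, theca-like cells were highest for 8.58% and without overlap for 0.721%. The ranking covers the 9 classes present in all 5 libraries and so leaves out rete ovarii-like cells. Those had Hmgcs1 at 126 and 151 CPM at 2 and 3 wk, against 129 and 157 CPM in theca-like cells. Groups within the granulosa-like class were not ranked, and antral-like cells had Sc5d at 118 CPM at 2 wk, against 67.4 CPM in theca-like cells. For Mvd the margin was narrow, with 11.7 CPM in the lowest theca-like library and 11.2 CPM in the highest granulosa-like library. The exceptions were Pmvk, which adds the second phosphate to mevalonate, Ebp, a sterol isomerase, and Dhcr7, the last reductase before cholesterol. Pmvk was highest in lymphatic endothelial-like cells at 119 ± 14.9 CPM, against 31.0 ± 5.19 CPM in theca-like cells (SD, n = 5), without overlap. Rete ovarii-like cells, with at least 10 cells in 2 libraries, had Pmvk at 111 and 124 CPM, level with the lymphatic endothelial-like cells. Ebp was at 67.4 ± 24.4 CPM in lymphatic endothelial-like cells and 65.7 ± 3.76 CPM in hematopoietic-like cells, and these did not differ beyond their spread. Dhcr7 was highest in surface epithelial-like cells (35.99 ± 9.95 CPM), in ranges that overlapped those of theca-like cells (28.5 ± 5.58 CPM).

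Against granulosa-like cells, 25 of the 30 members were higher in theca-like cells and 1 was lower (edgeR's quasi-likelihood test on UMI counts summed per library and class, with the library as a block, Benjamini-Hochberg adjusted p under 0.05). Of the 15257 genes tested in the same fit, 26.6% were higher and 26.5% lower, and the median log2 fold was 0.84 over the members and -0.0047 over all genes. The members were higher in 17 of 18 enzymes, 3 of 5 regulators and 5 of 7 uptake, transport and storage genes. The classes were clusters of the same cells, made with the members left out of the genes that drive the clustering, so the contrast is not fully independent of how the cells were grouped. Leaving out the 4 wk library left 16 members higher, and leaving out the 5 or the 6 wk library left 18. Fdps, Fdft1, Sqle, Msmo1, Nsdhl, Hsd17b7 and Mvk lost their call in all 3 cases. The shares of all genes called in these smaller fits are not given here, so the losses have no background beside them. With library sizes alone as the scaling, the split of all genes moved to 3279 higher and 5043 lower from 4056 and 4036, the median of all genes to -0.12, and the members to 22 higher and 1 lower.

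Among the enzymes the largest log2 folds were those of Idi1, Lss and Hmgcs1. Idi1, which isomerises the first isoprenoid unit, was at 51.6, 60.7, 89.5, 139 and 83.3 CPM in theca-like cells at 2, 3, 4, 5 and 6 wk and at 24.1, 10.9, 7.15, 16.8 and 13.5 CPM in granulosa-like cells. The log2 fold was 2.84 ± 0.36 (SE, adjusted p = 4.6e-05 by edgeR), and no theca-like library came near the granulosa-like range. Lss, which closes the sterol rings to give lanosterol, was at 8.77, 9.74, 14.3, 14.8 and 10.96 CPM against 3.20, 3.43, 2.56, 3.48 and 3.67 CPM, a log2 fold of 2.00 ± 0.25 (adjusted p = 3.5e-05 by edgeR). Its 2 groups did not overlap, although every level was low. Hmgcs1, the cytosolic synthase that makes HMG-CoA, was at 129, 157, 187, 383 and 147 CPM in theca-like cells and at 78.2, 56.6, 37.8, 57.3 and 51.0 CPM in granulosa-like cells. Its log2 fold was 1.94 ± 0.27 (adjusted p = 9.5e-05 by edgeR), and the lowest theca-like library was above the highest granulosa-like library.

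The promoter of Hmgcs1 is shown because it was the one member whose promoter held the sterol element searched for. Promoter entries (RefSeq, GRCm38.p6) ran from 250 bases before to 50 after the start, and only the 250 bases before it were searched. Among the 23 members with an entry, the SREBP element TCACNCCAC was found, on either strand, in 1, against 1.225% of the 27025 genes with an entry. The NF-Y box CCAAT was in 20 of the 23, against 37.5% of genes, and the Sp1 box GGGCGG in 21 of the 23, against 35.4%. These background shares cover all genes with an entry, expressed in these cells or not, and shares among expressed genes alone were not counted. AAGGTCA, a site bound by NR5A receptors, was in 2 (Hmgcs1 and Dhcr7), against 4.70%. Fdps, Fdft1, Sqle, Scarb1, Lpl, Npc1 and Stard4 had no entry. Only this spelling of the sterol element was searched, so a promoter without a match may still hold a variant, or an element outside the 250 bases. The 250 bases before the start of Hmgcs1 (chr13:119690101-119690350, plus strand) are given with the sterol element at -137 to -129 and the 3 inverted CCAAT boxes (ATTGG, starting at -237, -176 and -45) in capitals; the marked matches do not overlap, and a match of letters is not a bound site.
Hmgcs1: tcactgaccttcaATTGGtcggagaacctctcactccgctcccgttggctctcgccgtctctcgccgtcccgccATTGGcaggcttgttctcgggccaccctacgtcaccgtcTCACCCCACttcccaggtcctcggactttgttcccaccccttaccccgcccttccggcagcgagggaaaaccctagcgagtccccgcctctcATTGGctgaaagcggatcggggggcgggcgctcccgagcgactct

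The smallest folds among the enzymes were those of Ebp, Mvk and Pmvk. Ebp was at 28.4, 34.2, 50.03, 65.7 and 41.6 CPM in theca-like cells and at 28.8, 34.7, 38.7, 38.5 and 42.7 CPM in granulosa-like cells, a log2 fold of 0.36 ± 0.14 that did not pass (adjusted p = 0.051 by edgeR). Only the 4 and 5 wk theca-like libraries were above the granulosa-like range. Mvk, the first kinase after mevalonate, was at 22.5, 15.5, 21.3, 22.9 and 20.7 CPM against 11.4, 16.1, 16.2, 19.2 and 18.6 CPM, a log2 fold of 0.45 ± 0.16 (adjusted p = 0.030 by edgeR). The 3 wk theca-like library lay inside the granulosa-like range. Pmvk was at 26.7, 33.2, 36.8, 33.7 and 24.4 CPM against 19.4, 24.5, 26.2, 26.1 and 23.6 CPM, a log2 fold of 0.48 ± 0.14 (adjusted p = 0.012 by edgeR), with overlap through the 6 wk theca-like library. The other 12 enzymes had log2 folds from 0.56 for Hsd17b7 to 1.86 for Tm7sf2. Mvd and Cyp51, which form isopentenyl diphosphate and strip a methyl group from lanosterol, were higher by 1.19 ± 0.17 and 1.75 ± 0.27 on the log2 scale.

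Of the regulators, Srebf2, Insig1 and Scap were higher in theca-like than in granulosa-like cells, and Srebf1 and Insig2 did not pass. Srebf2, which encodes SREBP2, was at 42.1, 47.9, 58.5, 66.6 and 31.6 CPM in theca-like cells and at 25.6, 22.5, 19.3, 23.3 and 23.3 CPM in granulosa-like cells, without overlap (log2 fold 1.23 ± 0.17, adjusted p = 7.6e-05 by edgeR). Insig1, itself an SREBP target, was at 39.3, 49.4, 71.5, 70.1 and 54.8 CPM against 31.7, 28.9, 30.3, 37.0 and 28.3 CPM (log2 fold 1.004 ± 0.25, adjusted p = 0.0048 by edgeR). These ranges did not overlap either. Scap was at 42.5, 47.7, 67.5, 112 and 71.1 CPM against 45.8, 45.1, 39.2, 45.9 and 54.1 CPM (log2 fold 0.63 ± 0.18, adjusted p = 0.011 by edgeR), and its 2 and 3 wk theca-like libraries lay within the granulosa-like range. Srebf1, whose products favour fatty acid synthesis, was at 9.12, 4.25, 5.25, 17.1 and 12.2 CPM against 12.6, 6.62, 5.24, 10.2 and 9.04 CPM (log2 fold 0.23 ± 0.21). Insig2 was nearly flat, at 23.9, 22.5, 26.3, 29.99 and 24.1 CPM against 29.1, 24.8, 27.4, 28.2 and 31.4 CPM (log2 fold -0.03 ± 0.11).

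**Figure D2:**
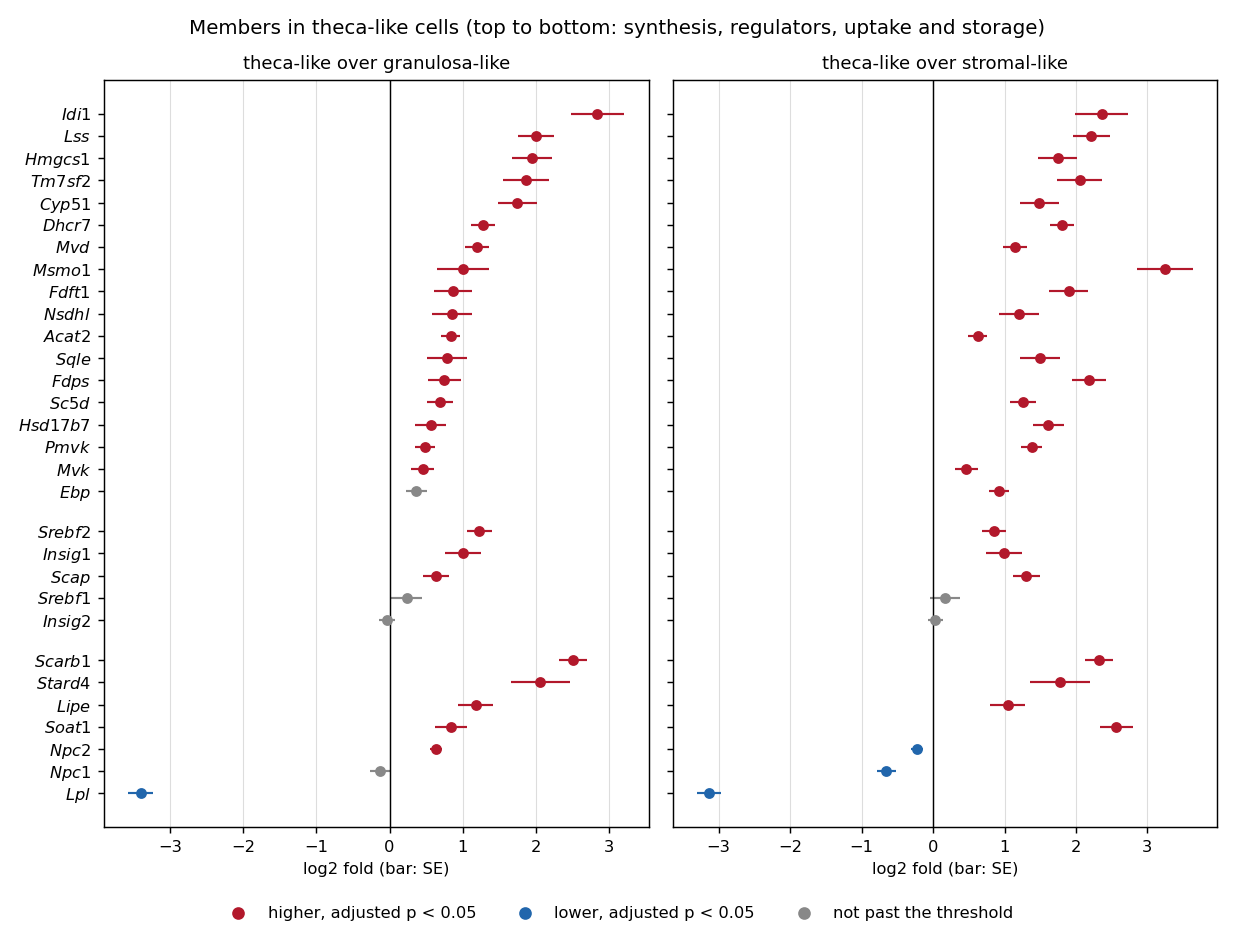
Log2 fold (x axis) of the 30 members in theca-like over granulosa-like cells (left) and over stromal-like cells (right), as points with the SE as bars, from 5 libraries. Idi1 is the largest on the left at 2.84 and Msmo1 on the right at 3.24, while Lpl is at -3.40 and -3.13.

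Uptake and storage genes split within the theca-like class, with Scarb1 at one end and Lpl at the other. Scarb1, the receptor for high-density lipoprotein, was at 386, 261, 253, 495 and 244 CPM in theca-like cells and at 77.3, 54.3, 41.3, 66.7 and 68.4 CPM in granulosa-like cells (log2 fold 2.50 ± 0.19, adjusted p = 7.6e-07 by edgeR). The lowest theca-like library was well above the highest granulosa-like library. Lpl, the lipase that frees fatty acids from circulating triglyceride, was at 5.61, 6.24, 9.005, 9.45 and 7.83 CPM against 88.1, 71.2, 93.2, 102 and 95.5 CPM (log2 fold -3.40 ± 0.17, adjusted p = 2.9e-08 by edgeR). It was lower in theca-like cells in 5 of 5 libraries, also against stromal-like cells at 55.5 to 87.2 CPM. In theca-like cells the 6 granulosa markers summed to 467 to 1053 CPM and the 6 stromal markers to 146 to 953 CPM, against 5056 to 7508 CPM and 4274 to 5603 CPM in those classes themselves. The part of such transcripts in the low Lpl values was not tested.

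Stard4 and Lipe were higher in theca-like cells but overlapped granulosa-like cells at 2 wk. Stard4, which carries free sterol between membranes, was at 5.61, 13.7, 23.5, 24.8 and 16.9 CPM against 4.15, 3.36, 3.62, 5.57 and 6.39 CPM (log2 fold 2.06 ± 0.40, adjusted p = 0.0011 by edgeR). Lipe, the hormone-sensitive lipase that also hydrolyses cholesteryl ester, was at 6.67, 10.2, 15.01, 24.9 and 12.8 CPM against 5.72, 7.21, 6.42, 6.26 and 7.36 CPM (log2 fold 1.18 ± 0.24, adjusted p = 0.0015 by edgeR). In both genes the 2 wk theca-like library was the one inside the granulosa-like range. Soat1, the acyltransferase that makes cholesteryl ester, was abundant in both classes, at 667, 462, 480, 1116 and 524 CPM against 558, 424, 268, 301 and 385 CPM (log2 fold 0.84 ± 0.22, adjusted p = 0.0071 by edgeR). Its ranges overlapped, since the 2 wk granulosa-like library was above 3 of the theca-like libraries. Npc2, a sterol carrier of the lysosome lumen, was at 260, 255, 269, 217 and 268 CPM against 169, 155, 200, 194 and 167 CPM (log2 fold 0.63 ± 0.08, adjusted p = 4.7e-05 by edgeR), without overlap. Npc1, its membrane partner, was at 16.8, 12.5, 11.5, 11.01 and 19.7 CPM against 17.4, 12.5, 13.8, 19.4 and 19.9 CPM and did not pass (log2 fold -0.13 ± 0.13).

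Against stromal-like cells, 25 members were higher in theca-like cells and 3 were lower, where 21.2% of all genes tested were higher and 24.6% lower. All 18 enzymes were among the 25, with a median log2 fold of 1.56 (edgeR's quasi-likelihood test), against a median of -0.03 over all genes. Msmo1, which acts after Cyp51 in the removal of methyl groups from the sterol ring, had the largest fold (log2 fold 3.24 ± 0.39, adjusted p = 5.5e-05 by edgeR). It was at 57.9, 94.6, 186, 252 and 111 CPM in theca-like cells and 24.6, 11.4, 9.96, 12.6 and 11.2 CPM in stromal-like cells. Its lowest theca-like value was above the highest stromal-like value. Soat1 followed at 2.56 ± 0.23 on the log2 scale, with 95.8 to 127 CPM in stromal-like cells. The 3 lower members were Lpl (-3.13 ± 0.17), Npc1 (-0.65 ± 0.13) and Npc2 (-0.22 ± 0.08, adjusted p = 0.043 by edgeR), and the call of Npc2 was lost without the 4, 5 or 6 wk library. Insig2 and Srebf1 did not pass.

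Granulosa-like cells differed from stromal-like cells in fewer members. Of the 30, 11 were higher and 2 lower (edgeR's quasi-likelihood test), against 33.4% higher and 32.4% lower among all genes, so the higher share was near the background. The 9 higher enzymes were Msmo1 (log2 fold 2.23 ± 0.37), Fdps (1.43 ± 0.22), Hsd17b7, Fdft1, Pmvk, Sqle, Sc5d, Ebp and Dhcr7. Soat1 was higher by 1.73 ± 0.22 and Scap by 0.67 ± 0.18 on the log2 scale. Npc2 (-0.86 ± 0.08) and Npc1 (-0.52 ± 0.12) were lower in granulosa-like cells. Idi1 was at -0.48 ± 0.34 and Hmgcs1 at -0.20 ± 0.26, neither of which passed.

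Outside these 3 classes the uptake and storage genes had their highest means in several classes, each with a range that overlapped the next class. Scarb1 was at 207 ± 50.4 CPM in blood endothelial-like cells, the next class after theca-like cells (328 ± 110 CPM; SD, n = 5), and their ranges overlapped. Stard4 was highest in blood endothelial-like cells (46.3 ± 14.2 CPM) and lymphatic endothelial-like cells (45.5 ± 27.7 CPM), against 16.9 ± 7.79 CPM in theca-like cells, and the 2 endothelial classes did not differ beyond their spread. The blood endothelial-like libraries, at 26.2 to 60.9 CPM, all lay above the theca-like libraries, a difference that was not tested. Npc1 and Soat1 were highest in surface epithelial-like cells, at 88.8 ± 25.1 CPM and 788 ± 226 CPM, overlapping hematopoietic-like and theca-like cells. Lpl and Npc2 were highest in hematopoietic-like cells, at 149 ± 95.9 CPM and 573 ± 170 CPM, with the 5 wk library at the top for both (315 and 835 CPM), overlapping granulosa-like and surface epithelial-like cells. Within the hematopoietic-like cells, the macrophage-like group (4 libraries of 14 to 50 cells) had Npc2 at 925, 948, 1113 and 739 CPM and Lpl at 360, 139, 577 and 197 CPM at 3, 4, 5 and 6 wk. Macrophages take up and degrade lipoprotein in lysosomes, where Npc1 and Npc2 act. High Lpl was not particular to the macrophage-like group, which averaged 318 ± 196 CPM. Among the mesenchymal-like cells, a group named from Col14a1 and related markers (767 cells) had Lpl at 312 ± 86.2 CPM (SD, n = 5). Another, named from Hoxd9 and related markers, had 160 ± 41.8 CPM. The other named mesenchymal-like groups averaged 9.85 to 37.0 CPM. Lipe was at 17.7 ± 10.2 CPM in blood endothelial-like and 13.9 ± 6.88 CPM in theca-like cells, within each other's spread.

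**Figure D3:**
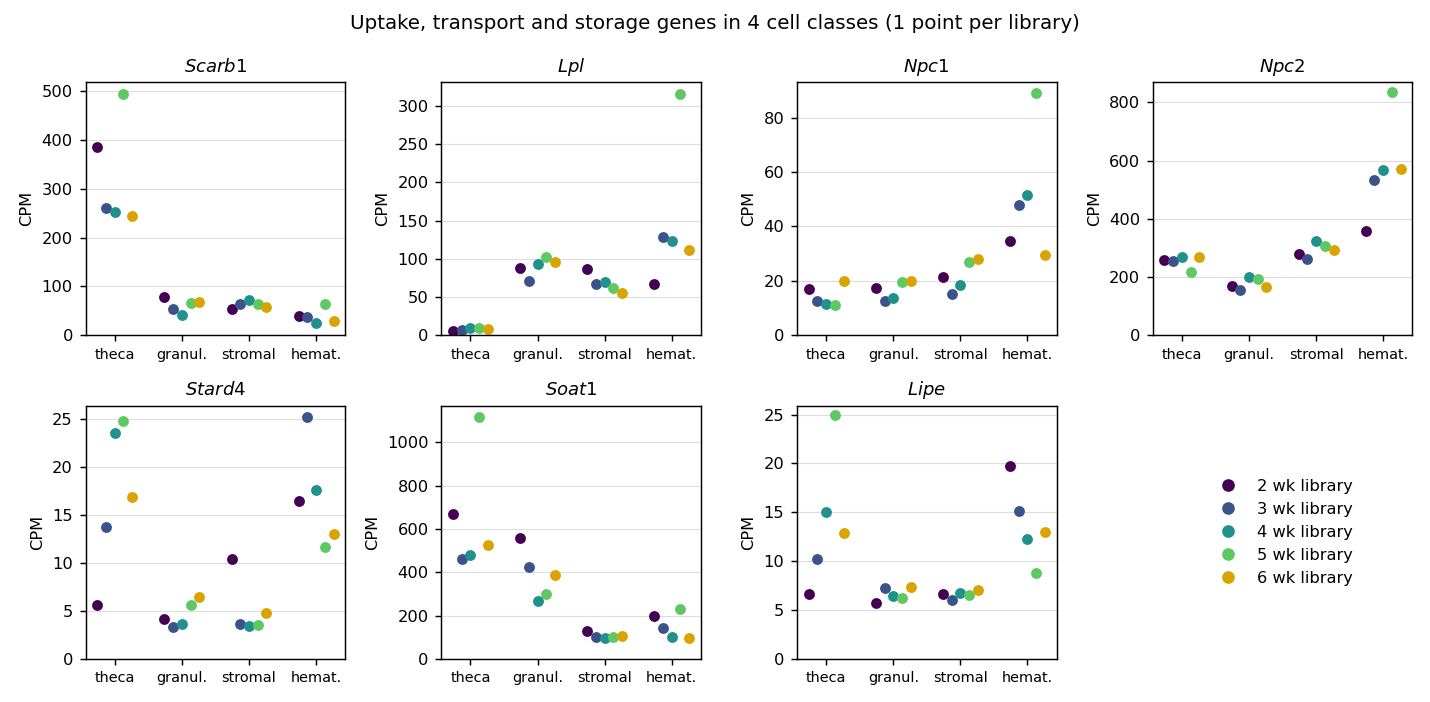
Level (y axis, CPM, from 0 and on a scale of its own in each panel) of the 7 uptake, transport and storage genes in theca-like, granulosa-like, stromal-like and hematopoietic-like cells, with 1 point per library coloured by age. Scarb1 is highest in theca-like cells at 244 to 495 CPM, and Lpl is at 5.61 to 9.45 CPM there.

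Counted as shares of cells with at least 1 UMI, Scarb1 was found in 73.2% to 94.6% of theca-like cells per library and 35.3% to 61.4% of granulosa-like cells. It was found in 27.85% to 31.05% of stromal-like cells and 13.8% to 20.0% of hematopoietic-like cells, a class added for comparison. Median depth per library ran from 12078.5 to 21623 UMIs for theca-like cells, from 12968.5 to 17997.5 for the granulosa class and from 4989 to 8596 for the hematopoietic class. After each cell was thinned to 3000 UMIs, which left out up to 13 theca-like, 82 granulosa-like, 493 stromal-like and 74 hematopoietic-like cells per library, the shares were 40.6% to 66.2%, 10.1% to 19.98%, 10.69% to 13.6% and 5.88% to 9.52% in that order. The theca-like share stayed above the others in every library. For Idi1 the thinned share was 9.21% to 29.5% in theca-like and 1.525% to 6.46% in granulosa-like cells. In the hematopoietic-like cells of the 2 wk library (51 before thinning) it was 15.2%, above the theca-like share of that library. At 2 wk the Idi1 share therefore did not set theca-like cells apart from that class. Over the list, 13 of 30 members were found in a larger share of theca-like than of granulosa-like cells in all 5 libraries, against 17.1% of all genes tested, and 14 after thinning, against 11%. With cells classed one by one by marker score the count was 8, with no share of all genes to set beside it. These shares carry counting error only and no test.

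Other genes of sterol handling, fixed as a list of 25 beside the members, were counted in the same comparisons. Of the 24 tested against granulosa-like cells, 7 were higher and 5 lower (edgeR's quasi-likelihood test), with a median log2 fold of 0.08, shares near the 26.6% and 26.5% of all genes. The largest differences were in Star, which moves cholesterol to the inner mitochondrial membrane (log2 fold 4.51 ± 0.41), Fdx1, which passes electrons to the side-chain cleavage enzyme (3.54 ± 0.37), and Acat1, a mitochondrial thiolase (1.67 ± 0.14). Star averaged 152 ± 159 CPM over the theca-like libraries, with values from 29.7 to 428 CPM, and 5.31 ± 1.08 CPM in granulosa-like cells. Star was also present in surface epithelial-like cells, at 248 ± 76.3 CPM (SD, n = 5). The lowest folds that passed were in Lrp8, a receptor of the lipoprotein family (-3.26 ± 0.44), and Gramd1c, a sterol transfer protein (-2.05 ± 0.44). Abcg1, a sterol exporter, was at -1.78 ± 1.004 and did not pass. Against stromal-like cells 8 of 24 were higher and 9 lower (21.2% and 24.6% of all genes), and granulosa-like over stromal-like cells gave 5 higher and 11 lower (33.4% and 32.4%). Idi2 was too low to test.

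Within the granulosa-like class, members were compared between preantral-like (2440 cells), antral-like (1624 cells) and remodeling-like (3221 cells) groups, named from markers of follicle stage. Another 5722 granulosa-like cells, in 4 clusters, had no stage name and were left out. Of these, a cluster of 2065 cells had the preantral markers Igfbp5, Wnt4 and Kctd14 among its leading genes. The largest unnamed cluster held 2200 cells, more than the antral-like group, and was led by Vpreb3, Pid1 and Tex14. At 4 wk it held 878 cells, against 417 antral-like cells. Its follicle stage was not tested, and it enters neither the antral-like levels nor the antral-like comparisons. The groups may therefore not hold all cells of their stage. The antral-like group held 11 members at higher and 2 at lower levels than the preantral-like group, where 19.5% of the 11996 genes tested were higher and 19.8% lower (edgeR's quasi-likelihood test with Benjamini-Hochberg adjustment). The summed synthesis level was 788, 626, 395, 704 and 659 CPM in the antral-like and 485, 456, 478, 487 and 472 CPM in the preantral-like group at 2, 3, 4, 5 and 6 wk. The 4 wk antral-like library was below all preantral-like libraries, and the other 4 were at or above 626 CPM. The 4 wk antral-like cells had a median of 11807 UMIs, the lowest of the antral-like libraries, and the 4 wk preantral-like cells 8420 UMIs; the part of depth in the low 4 wk sum was not tested. The antral-like group joins 2 clusters, and the smaller one made up 49.2% of its cells at 4 wk and 4.66% to 37.8% in the other libraries. In the larger cluster alone the sum was 832, 635, 467, 831 and 752 CPM, so the 4 wk library was again the lowest and lay within the preantral-like range. The smaller cluster summed to 550, 302, 443 and 451 CPM at 2, 4, 5 and 6 wk, with too few cells at 3 wk.

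Stard4 and Insig1 led the antral-like over preantral-like comparison. Stard4 was at 14.1, 9.07, 2.57, 8.56 and 9.66 CPM against 2.05, 0.357, 0.926, 1.60 and 1.09 CPM (log2 fold 2.96 ± 0.32, adjusted p = 1.6e-05 by edgeR), low in both groups but without overlap. Insig1 was at 55.5, 37.5, 28.4, 42.5 and 32.8 CPM against 18.2, 13.1, 13.6, 12.8 and 10.7 CPM (log2 fold 1.55 ± 0.11, adjusted p = 7.5e-07 by edgeR). All 5 antral-like libraries were above all preantral-like libraries. Mvk was higher by 1.24 ± 0.18, Msmo1 by 0.98 ± 0.23, Scap by 0.89 ± 0.14 and Mvd by 0.83 ± 0.21 on the log2 scale. Fdps, Sc5d, Pmvk, Cyp51 and Srebf2 were higher by 0.82, 0.65, 0.63, 0.48 and 0.42. Hsd17b7, which completes the removal of methyl groups from the sterol ring, ran the other way, at 32.6, 12.6, 14.0, 23.5 and 24.7 CPM in antral-like and 25.3, 52.3, 32.4, 53.0 and 49.6 CPM in preantral-like cells (log2 fold -0.95 ± 0.25, adjusted p = 0.0086 by edgeR). The 2 wk antral-like library lay inside the preantral-like range. Soat1 was lower by 0.44 on the log2 scale (adjusted p = 0.040 by edgeR), a call that was lost without the 3, 4, 5 or 6 wk library.

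The remodeling-like group, granulosa cells with high Cald1, Ghr and related markers, held 18 members at lower and 1 at a higher level than the antral-like group. The authors also reported more Cald1, Ghr and Mmp11 in antral granulosa cells of the later follicle wave than of the first. High levels of these markers are therefore not particular to remodeling. Among all genes 11.8% were lower and 13.6% higher, and the median log2 fold was -0.69 over the members and -0.0020 over all genes (edgeR's quasi-likelihood test). Lower members were 12 of 18 enzymes, the regulators Scap, Insig1 and Srebf2, and Stard4, Soat1 and Scarb1. Idi1 was at 21.4, 4.57, 2.94, 6.17 and 3.85 CPM in remodeling-like and 30.2, 11.8, 7.70, 25.4 and 19.7 CPM in antral-like cells (log2 fold -1.65 ± 0.25, adjusted p = 0.00036 by edgeR), lower in each of the 5 libraries. The remodeling-like group joins 3 clusters in shares that differ by library: 1 of them held 88.1% of its cells at 2 wk and 14.2% at 4 wk. Within that cluster Idi1 was at 22.0, 4.34, 2.14, 9.37 and 2.43 CPM, below the whole antral-like group of the same library each time. The larger antral-like cluster, at 33.5, 11.9, 11.9, 31.4 and 22.3 CPM, was above it each time. The smaller antral-like cluster was at 12.5, 2.26, 13.1 and 13.9 CPM at 2, 4, 5 and 6 wk. That is lower at 2 wk, nearly level at 4 wk and higher at 5 and 6 wk. For the summed enzymes the 3 clusters were at 355 to 373 CPM at 4 wk, 402 to 430 at 5 wk and 431 to 470 at 6 wk. The smaller antral-like cluster, at 302, 443 and 451 CPM, was below all of them at 4 wk, above all at 5 wk and among them at 6 wk. The larger antral-like cluster was above them, at 467, 831 and 752 CPM. Members were not tested by cluster. Fdps, which makes farnesyl diphosphate, was at 43.7, 25.1, 22.8, 24.8 and 32.3 CPM in remodeling-like against 92.1, 81.7, 48.8, 71.7 and 82.5 CPM in antral-like cells (log2 fold -1.34 ± 0.11, adjusted p = 5.9e-06 by edgeR), without overlap. Scap was below the antral-like range in every library, at 25.9 to 34.5 CPM against 53.7 to 115 CPM (log2 fold -1.38 ± 0.15). The single higher member was Hsd17b7, at 66.8, 62.4, 57.1, 47.6 and 67.1 CPM (log2 fold 1.53 ± 0.25, adjusted p = 0.00067 by edgeR), above every antral-like library. The count of lower members was 13 without the 5 wk library, which lost Sqle, Lss, Msmo1, Dhcr7 and Srebf2, and 14 without the 6 wk library, which lost Sqle, Lss, Tm7sf2 and Srebf2. At clustering resolution 0.6, 3 members were higher, with Insig2 and Npc1 added. For these alternatives the shares of all genes called are not given here.

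**Figure D4:**
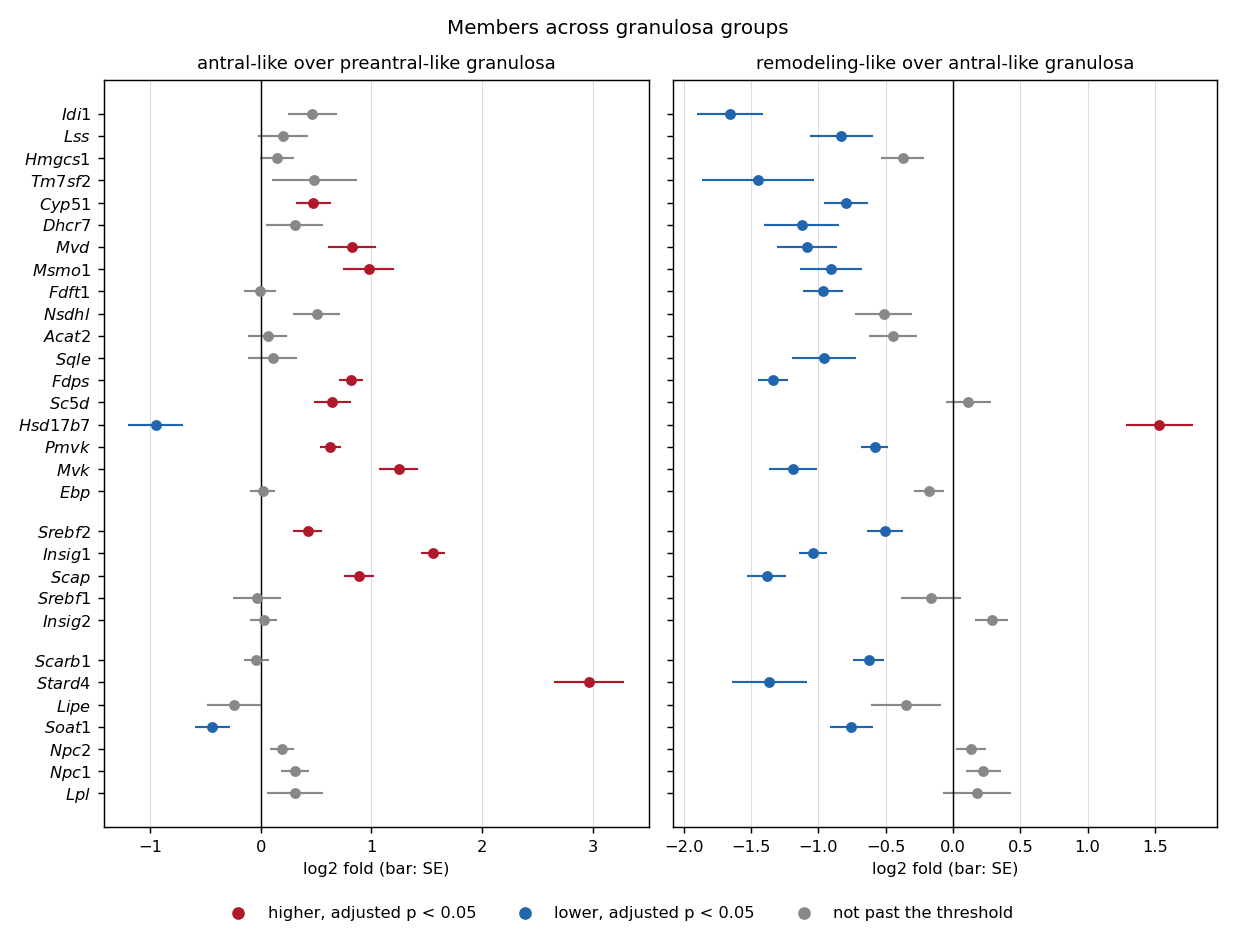
Log2 fold (x axis) of the 30 members in antral-like over preantral-like granulosa cells (left) and in remodeling-like over antral-like granulosa cells (right), as points with the SE as bars, from 5 libraries. Hsd17b7 is lower on the left (-0.95) and higher on the right (1.53), and Stard4 is higher on the left (2.96) and lower on the right (-1.37).

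Both comparisons use the antral-like libraries, so the values of a member in them share those samples. A member higher in the first and lower in the second is therefore no independent repeat of the result. Among the 21 other sterol genes tested, 8 were higher and 3 lower in antral-like over preantral-like cells (19.5% and 19.8% of all genes), with Lrp8 (2.53 ± 0.51), Gramd1b (1.90 ± 0.18) and Fdx1 (1.70 ± 0.22) at the top. In remodeling-like over antral-like cells 2 were higher and 3 lower (13.6% and 11.8% of all genes), with Gramd1b at -2.24 ± 0.19 and Vldlr, a lipoprotein receptor, at 1.39 ± 0.22 (log2 folds, edgeR's quasi-likelihood test).

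With age, the theca-like level of the synthesis enzymes was lowest at 2 wk and highest at 5 wk, while the stromal-like level was highest at 2 wk. The summed theca-like level at 4 wk was 1.80 times that at 2 wk (95% interval 1.70 to 1.90), at 5 wk 2.45 times (2.33 to 2.57), and at 6 wk 0.564 times that at 5 wk (0.542 to 0.587). In granulosa-like cells the same ratios were 0.808, 0.965 and 1.02, and in stromal-like cells 0.592, 0.592 and 1.02. The intervals cover counting error only, and with 1 library per age there is no test and no measure of the spread between mice. Uptake, transport and storage genes in theca-like cells summed to 0.787 times the 2 wk level at 4 wk and 1.41 times at 5 wk. Their sum therefore did not share the 4 wk value of the enzymes. Soat1, Scarb1 and Npc2 made up most of that sum, at 667, 386 and 260 CPM at 2 wk. At 4 wk they were at 0.719, 0.654 and 1.03 times these levels. The less abundant Stard4, Lipe and Lpl were at 4.19, 2.25 and 1.60 times, and Npc1 at 0.683 times. For 5 wk over 2 wk, age and Cell Ranger version cannot be told apart. The theca marker sum was 1885 CPM at 4 wk and 9684 at 5 wk against 2514 at 2 wk. The stromal marker sum in theca-like cells was 953, 498 and 146 CPM at 2, 4 and 5 wk. Theca-like cells numbered 165, 278, 306, 616 and 151 at 2, 3, 4, 5 and 6 wk. When mesenchymal-like cells, theca-like included, were clustered again, the cluster led by Cyp11a1 and Cyp17a1 held 62, 128, 172, 490 and 55 cells. A cluster led by Cpa1, Kctd14 and Sct held 86, 133, 111, 103 and 85 cells. The part of the marker sums and of this mix in these ratios was not tested.

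**Figure D5:**
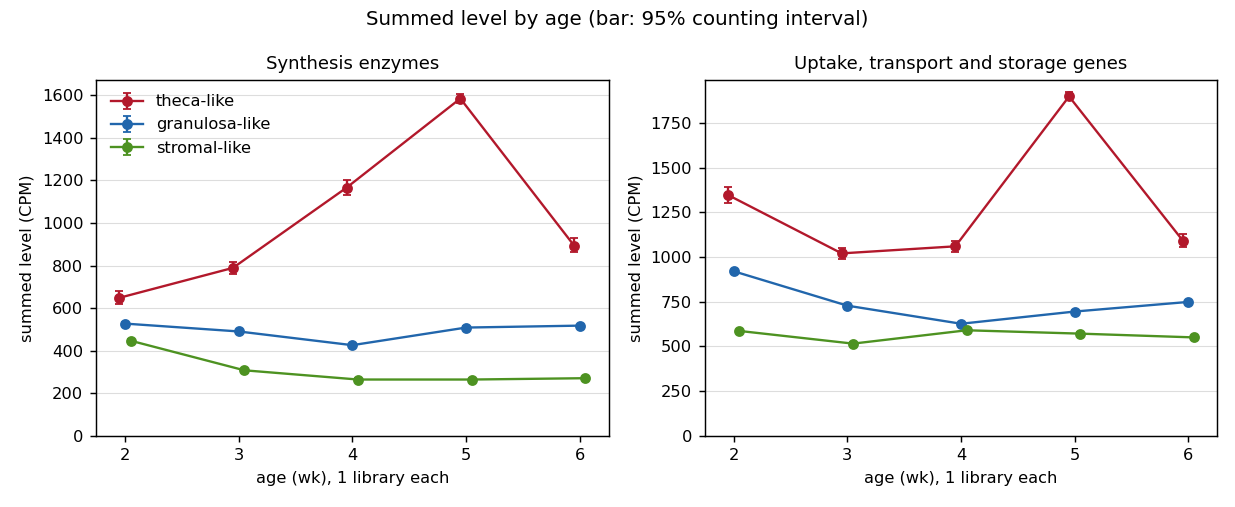
Summed level (y axis, CPM, from 0) of the synthesis enzymes (left) and of the uptake, transport and storage genes (right) against age (x axis, wk) in theca-like, granulosa-like and stromal-like cells, 1 library per age with 95% counting intervals as bars. The theca-like line for the enzymes goes from 648 CPM at 2 wk to 1585 CPM at 5 wk and 894 CPM at 6 wk.

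Gene by gene, 8 of the 28 members with at least 50 UMIs were at least 2-fold higher in theca-like cells at 4 than at 2 wk and 0 were 2-fold lower, where 4.61% and 5.64% of all such genes were. Stard4 had the largest ratio, 4.19 (2.45 to 7.63), followed by Msmo1 at 3.21 (2.71 to 3.83), Mvd, Cyp51, Lipe, Nsdhl, Hsd17b7 and Fdft1 at 2.00 to 2.67. At 5 over 2 wk 13 of 30 were 2-fold higher and 0 lower, against 8.89% and 8.44%, with Stard4 at 4.41 and Msmo1 at 4.35. Hmgcs1 was at 2.97, Scap at 2.64 and Lipe at 3.74 in that comparison. At 6 over 5 wk 1 member was 2-fold higher and 7 were 2-fold lower, against 7.58% and 9.47%. The higher one was Mvd (2.19), and the lower ones were Hmgcs1 (0.383), Msmo1 (0.442), Cyp51, Nsdhl, Soat1, Srebf2 and Scarb1 (0.493).

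Members went the other way in stromal-like cells between 2 and 4 wk. There 0 members were 2-fold higher and 7 lower, against 3.75% and 6.26% of all genes counted, and Idi1 at 4 wk was 0.200 times its 2 wk level (0.172 to 0.231), from 46.6 to 9.32 CPM. Stard4, Sqle, Insig1, Msmo1, Lss and Hmgcs1 had ratios from 0.326 to 0.487. At 5 over 2 wk 0 were higher and 5 lower, against 4.18% and 3.55%, and at 6 over 5 wk no member was 2-fold apart, against 1.08% higher and 3.72% lower. The stromal marker sum stayed between 4274 and 5603 CPM over the 5 libraries. The genes named above for 4 over 2 wk were also lower at 4 than at 2 wk in smooth muscle-like cells. There Idi1 was at 12.6 against 32.1 CPM, Stard4 at 1.56 against 8.39 CPM and Hmgcs1 at 55.3 against 104 CPM. In granulosa-like cells 0 members were 2-fold higher and 6 lower at 4 over 2 wk, against 7.04% and 11.1%. These were Idi1 (0.296), Srebf1, Tm7sf2, Fdft1, Soat1 and Hmgcs1 (0.483). At 5 over 2 wk only Tm7sf2, a sterol reductase, was 2-fold lower (0.494), against 6.83% higher and 6.39% lower among all genes, and at 6 over 5 wk no member was, against 0.956% and 1.35%. The granulosa-like mix also moved: remodeling-like cells numbered 101 and 1335 at 2 and 4 wk, preantral-like cells 763 and 367. Hmgcs1 went from 77.8 to 59.6 CPM in preantral-like, 110 to 32.2 in antral-like and 86.4 to 37.9 in remodeling-like cells. For Soat1 these values were 708 to 577, 698 to 388 and 417 to 224 CPM. The part of the mix in the class ratios was not tested.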

How the data were processed

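The authors made 10x Genomics 3′ v3.1 libraries, aligned the reads to mm10 and counted UMIs with Cell Ranger, and deposited raw UMI counts per gene and cell. Per the file headers the 2, 3 and 4 wk tables come from Cell Ranger 3.1.0 and the 5 and 6 wk tables from 6.0.1; the submitters' processing notes also name Seurat 4.1.0. Here all 48163 cells were kept, integrated and clustered in Seurat 5.3.0 (2000 variable genes without the members and other sterol genes, 30 components, resolution 1), and clusters were named from markers, with at least 3 detected (at least 10% of cells and 1.5 times the median cluster). Scrublet (scanpy 1.11.5) called 162 to 555 cells per library doublets, which stayed in except in an alternative. Within the granulosa, mesenchymal and hematopoietic classes, groups were found by clustering again. These groups also needed a mean z-score of their markers across clusters of at least 1. Of the granulosa-like cells, 5722 in 4 clusters got no group name and entered no comparison of granulosa groups. Outside the named classes, the remaining 6782 cells lay in 7 unnamed clusters and entered no comparison.

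CPM is a gene's UMIs added up within one class of one library, divided by all UMIs of the same cells (the usual CPM scale), for groups of at least 10 cells. Classes were compared with edgeR 4.0.16 (TMM, filterByExpr, glmQLFit and glmQLFTest, Benjamini-Hochberg, threshold 0.05), on 15 sums of 3 classes in 5 libraries, or on the same number for the granulosa groups. The library was a block because its classes come from 1 suspension. Intervals at 95% (exact Poisson, exact binomial, conditional for ratios) cover counting error only, and a count of 0 still has an upper limit above 0. The test and the intervals were tested on simulated data. For the ratio intervals these were Poisson counts, which hold no spread between cells, mice or libraries. The members, the lists and the genes described in full (the 3 largest and smallest theca-like over granulosa-like folds of each role, and changes of at least 2-fold with age on at least 50 UMIs) were chosen with earlier results of these data known. Some genes of the pathway are not reported here. Alternatives were DESeq2 1.42.0, its size factors, library sizes alone, no low-count filter, each library left out, stricter cells (at least 1000 genes, under 10% mitochondrial UMIs), doublets left out, resolution 0.6, cells classed one by one by marker score, and other CPM denominators.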

Additional observations from a re-analysis of the deposited data

Results flagged for a closer look

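The list sums moved in different directions with age in some cell classes. For the synthesis enzymes, the summed CPM at 4 wk over 2 wk was 1.80 in theca-like, 0.808 in granulosa-like and 0.592 in stromal-like cells, and at 5 wk over 2 wk it was 2.45, 0.965 and 0.592, the granulosa-like value turning to 1.05 with cells classed one by one. At 6 wk over 5 wk the ratio was 0.564 in theca-like and 1.02 in granulosa-like cells, which turned to 0.984 with cells classed one by one. For the uptake, transport and storage genes, 5 wk over 2 wk gave 1.41 in theca-like, 0.755 in granulosa-like and 0.974 in stromal-like cells, and 6 wk over 5 wk gave 0.575, 1.08 and 0.963, so theca-like and stromal-like values were both below 1. With 1 library per age the difference between classes was not tested in any of these. Theca-like cells at 5 wk were also those with the highest theca marker sum (9684 CPM) and the lowest stromal marker sum (146 CPM), and the part of this in the ratios was not tested. The part of the mix of clusters among the theca-like cells, described with the age ratios, was not tested either. Neither was the part of the mix of groups among the granulosa-like cells.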

How the results depend on the processing

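The numbers of members called higher and lower in the 5 comparisons between classes or granulosa groups stayed within 1.5 times those reported under DESeq2, its size factors, library sizes alone, no low-count filter, doublets left out and the stricter cell filter. Leaving out 1 library gave 16 (without 4 wk) to 24 (without 2 wk) members higher in theca-like over granulosa-like cells, and 1 to 2 lower in antral-like over preantral-like cells, where Soat1 was lost without the 3, 4, 5 or 6 wk library. At resolution 0.6, 3 members were higher in remodeling-like over antral-like cells, and Scarb1 in antral-like over preantral-like cells turned to a log2 fold of 0.28 (adjusted p = 0.037 by edgeR). With cells classed one by one, Insig2 in granulosa-like over stromal-like cells turned to -0.22 (adjusted p = 0.039 by edgeR), and 8 members had a larger share of cells in theca-like than in granulosa-like cells in all libraries. The causes were not tested. For the left-out libraries, resolution 0.6 and cells classed one by one, the shares of all genes called are not given beside these counts. The fits here include the library as a block.

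Ratios with age depended on which cells were counted. With cells classed one by one, the synthesis enzymes gave 1.32, 1.68 and 0.601 in theca-like cells (4 over 2, 5 over 2 and 6 over 5 wk), 0.885, 1.05 and 0.984 in granulosa-like cells, the last pair reversed, and 0.569, 0.548 and 1.09 in stromal-like cells. The uptake, transport and storage genes then gave 0.585 and 1.01 in theca-like cells (4 and 5 over 2 wk) and 0.690, 0.735 and 1.16 in granulosa-like cells. With the mean of the cells' own CPM, the enzymes gave 2.33 and 0.514 in theca-like (5 over 2, 6 over 5 wk), 0.785, 0.931 and 1.04 in granulosa-like and 0.569 in stromal-like cells (5 over 2 wk), and the uptake genes 0.710 and 1.12 in granulosa-like (4 over 2, 6 over 5 wk) and 0.939 and 0.987 in stromal-like cells (5 over 2, 6 over 5 wk). Without ribosomal protein and mitochondrial genes in the denominator, the enzymes gave 2.29 and 0.623 in theca-like (5 over 2, 6 over 5 wk) and 0.844 in granulosa-like cells (4 over 2 wk), and the uptake genes 1.32, 0.635 and 0.712 in the same places. Resolution 0.6 gave 0.744 and 1.31 for the uptake genes in theca-like cells (4 and 5 over 2 wk), and the stricter cell filter 0.5995 in theca-like and 1.05 in granulosa-like cells (6 over 5 wk).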
